A study of Oryctolagus cuniculus with 6 samples.

Results

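Limbal stem and progenitor markers are genes used to recognise limbal stem cells (LSCs), the cells at the rim of the cornea from which the corneal epithelium is renewed. A list of 9 putative markers was examined, namely TP63, ABCG2, ABCB5, BMI1, SOX9, FRZB, GPHA2, CEBPD and NGFR. Members were found by their gene symbol, and 7 of the 9 had a row among the 22190 genes of the count table. ABCG2 and ABCB5 had no row under these symbols in the table used here. Of the 7 genes with a row, 5 passed the filter on low counts and were tested with 15029 genes in all, while GPHA2 and FRZB had too few counts.

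RNA-seq of polyadenylated RNA had been performed on the cells that migrated from rabbit limbal explants in culture (primary LSCs), as 3 fresh and 3 preconditioned libraries. The fresh group came from untreated corneas. The corneas of the preconditioned group had been kept for 1 week in liquid nitrogen, in a cryomedium with 10 ng/mL of the inflammatory cytokine IL-1β, before the limbus was put into culture. Freezing and IL-1β came together in this group, so that their parts cannot be told apart. The donor animal of each library is not given in the sources used here, so p values measure only the spread between these samples, which may be technical. Since these are cultures of mixed cells, fewer cells of a type and less RNA per cell cannot be told apart.

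In the limbus, LSCs sit in the basal layer, divide rarely and give rise to transient amplifying cells, which multiply, move toward the centre of the cornea and differentiate. TP63 encodes p63, a transcription factor needed for stratified epithelia. BMI1 is a subunit of a Polycomb repressive complex, SOX9 is a transcription factor of progenitor cells in many tissues, and CEBPD is a transcription factor linked to the quiescence of LSCs. FRZB is a secreted Wnt antagonist, GPHA2 is a glycoprotein hormone subunit found in quiescent limbal cells, and NGFR is the low-affinity neurotrophin receptor p75. ABCG2 and ABCB5 are transporters that pump compounds out of the cell.

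The libraries held 31952352 to 34327534 counts on genes. Counts are given as CPM, that is relative to a library size scaled with edgeR's TMM factors of 1.06 to 1.07 (fresh) and 0.914 to 0.965 (preconditioned). On a principal component with 54.1% of the variance, the values were −43.4 to −32.9 for fresh libraries, and preconditioned replicates 2 and 3 were at 48.7 and 58.1. Preconditioned replicate 1 stood apart from these at 3.56, so results of the members are also given without it where it changes a call. For other genes this was done only in part. The corneal epithelial genes PAX6 (198 ± 21.9 CPM fresh and 346 ± 131 CPM preconditioned, SD, n = 3), KRT5 (9601 ± 1156 and 9320 ± 2234 CPM) and CDH1 (495 and 471 CPM) were expressed in both groups. KRT12 and KRT14, defining keratins of the corneal and limbal epithelium, had no row under these symbols.

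No member passed both cutoffs of edgeR's quasi-likelihood test. The cutoffs were 0.05 for the Benjamini-Hochberg adjusted p and 1, in either direction, for the log2 fold change, and a gene past both is called. Among all tested genes, 2.29% passed them. At the adjusted p alone, 0 of 5 tested members passed, against 5.08% of all tested genes. At an unadjusted p of at most 0.05, 3 of the 5 passed (TP63, CEBPD and NGFR), against 30.6% of all tested genes. The lowest adjusted p values among the members were those of CEBPD and TP63, at 0.054 and 0.0588. In these 2 genes all preconditioned libraries lay below all fresh libraries, which was so for 18.8% of tested genes. The opposite separation was seen for 0 of 5 members and for 17.9% of tested genes. With DESeq2, which called 7.78% of its tested genes, 0 of the 5 members tested by edgeR were called. GPHA2 was, but it had no counts in the preconditioned group and entered that test through the fresh libraries alone, so it is not counted here.

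**Figure D1:**
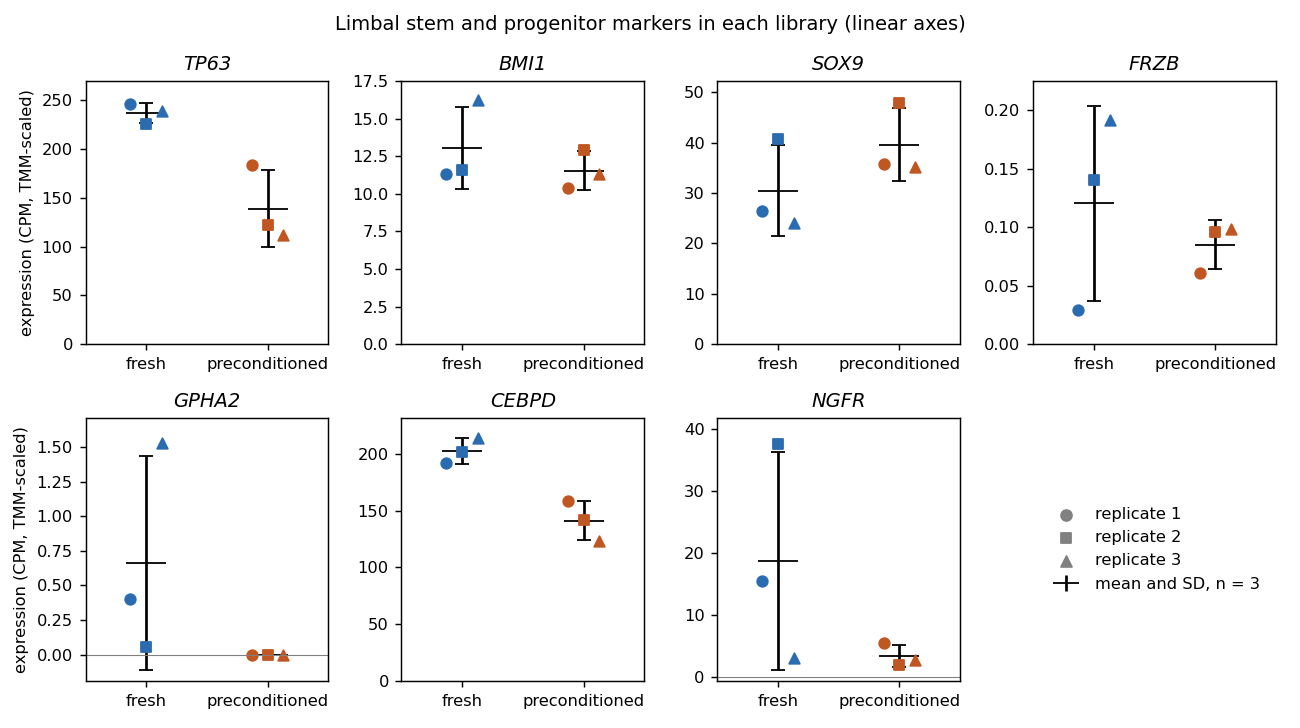
Expression of the 7 markers with a row in each library, in CPM on linear axes, with 1 panel per gene, 1 point per library and the mean and SD of the 3 libraries of each group. The groups are apart for TP63 and CEBPD, GPHA2 is at 0 in all 3 preconditioned libraries, and the fresh libraries of NGFR range from 3.01 to 37.6 CPM.

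TP63 was expressed at 246, 226 and 239 CPM in fresh replicates 1 to 3 and at 183, 122 and 112 CPM in preconditioned replicates 1 to 3. The fresh libraries lay close together, the preconditioned libraries spread more widely, and the groups did not overlap. Mean expression was 237 ± 10.1 CPM (fresh) and 139 ± 38.9 CPM (preconditioned; SD, n = 3), a ratio of 0.587. The log2 fold change was −0.77 (standard error 0.19, 95% interval −1.22 to −0.32) with an edgeR adjusted p of 0.0588, so that the difference narrowly missed the threshold. The exact, 2-sided permutation p was 0.1, the smallest that 3 libraries against 3 allow. DESeq2 gave a log2 fold change of −0.77 with an adjusted p of 0.00839, which is short of the fold change cutoff.

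The 3 preconditioned libraries did not depart equally from the fresh mean of TP63. Preconditioned replicate 1 held 77.5% of the fresh mean, and replicates 2 and 3 held 51.3% and 47.2%. Without preconditioned replicate 1, TP63 passed both cutoffs of edgeR, with a log2 fold change of −1.03 and an adjusted p of 0.00398, in a fit in which 9.99% of tested genes did. The summed CPM of 8 proliferation markers was likewise nearest to the fresh mean in preconditioned replicate 1, at 77.9% of it, with 28.1% and 31.0% in replicates 2 and 3. KRT5, the keratin of basal epithelial cells, was at 122%, 92.5% and 76.4% of its fresh mean in the 3 preconditioned libraries. The part of proliferation in the difference of TP63 was not tested. The counts were made per gene, so the isoforms of p63 are not separated here.

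TP63 was also set against keratins within each library, a measure that needs no scaling between libraries. KRT3 pairs with KRT12 in differentiated corneal epithelium and is the differentiation marker used with p63 in the study. The log2 ratio of TP63 to KRT3 was −1.97, −3.55 and −0.78 in the fresh libraries and −2.12, −0.98 and −2.64 in the preconditioned libraries. The groups overlapped throughout. The means of −2.10 ± 1.39 and −1.91 ± 0.85 (SD, n = 3) differed by 0.19, which is less than the spread between libraries (exact, 2-sided permutation p = 1). KRT3 itself ranged from 409 to 2655 CPM over the fresh libraries and from 239 to 801 CPM over the preconditioned ones (log2 fold change −1.21, edgeR adjusted p = 0.296). The direction of the ratio's difference depended on single libraries, since it was −0.54 without fresh replicate 2 and −0.28 without preconditioned replicate 2.

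Against KRT5, chosen after KRT12 was found to have no row, the log2 ratio of TP63 was −5.44, −5.43 and −5.14 in the fresh libraries and −6.00, −6.19 and −6.04 in the preconditioned libraries. Every preconditioned library was below every fresh library. The means were −5.33 ± 0.17 and −6.08 ± 0.10 (SD, n = 3), a difference of −0.74 with an exact, 2-sided permutation p of 0.1, the smallest that this design allows.

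**Figure D2:**
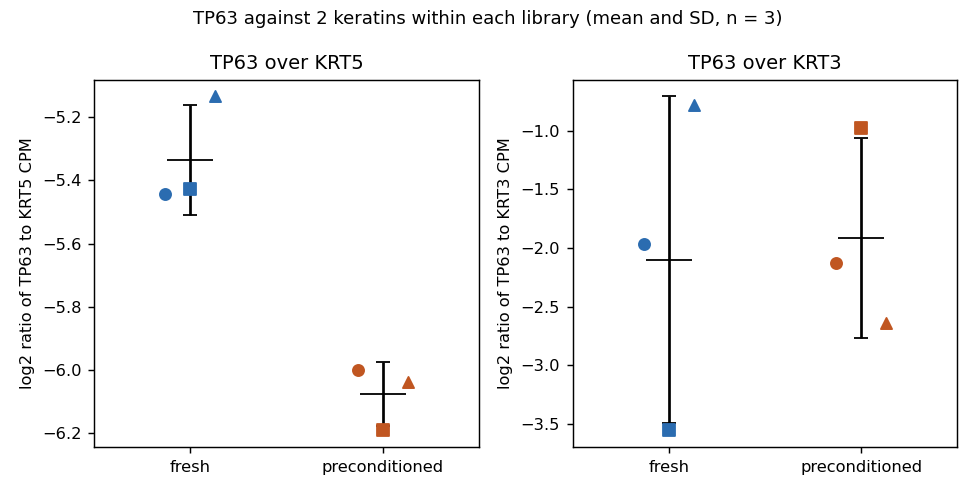
Log2 ratio of the CPM of TP63 to that of KRT5 (left) and KRT3 (right) in each library, with circles, squares and triangles for replicates 1, 2 and 3 and bars for the mean and SD of each group (n = 3). The groups are apart for KRT5, with means of −5.33 and −6.08, and overlap for KRT3, whose vertical axis covers a wider range.

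Of 16 relatives, partners and targets of p63, 15 were tested, 1 rose and 1 fell at both cutoffs. CDKN1A, the cell cycle inhibitor p21, rose from 916, 1048 and 1164 CPM in the fresh libraries to 1720, 3078 and 2265 CPM in the preconditioned libraries (log2 fold change 1.18, standard error 0.22, edgeR adjusted p = 0.0393). FGFR2, a receptor for fibroblast growth factors, fell from 29.8 ± 3.38 to 12.6 ± 3.41 CPM (SD, n = 3; log2 fold change −1.24, standard error 0.23, adjusted p = 0.0388). LAMB3, a laminin chain of the epithelial basement membrane, changed from 852 ± 84.2 to 1695 ± 271 CPM (SD, n = 3) and passed the adjusted p alone, with a log2 fold change of 0.99 (adjusted p = 0.0318). PERP, a desmosomal target of p63 singled out after its values were seen, likewise passed the adjusted p alone (log2 fold change 0.68, adjusted p = 0.0394). The median log2 fold change of the list was 0.27, with 9 genes above 0 and 6 below, against a median of 0.01 over all tested genes. TP63 itself thus lay below the median of its list, while its targets were found on both sides of 0.

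CEBPD was the most abundant member per gene length in either group. Its expression was 192, 202 and 214 CPM in the fresh libraries and 158, 142 and 123 CPM in the preconditioned libraries, and the groups did not overlap. The means were 203 ± 11.3 and 141 ± 17.4 CPM (SD, n = 3), a ratio of 0.697. The log2 fold change was −0.52 (standard error 0.12, 95% interval −0.81 to −0.23) with an edgeR adjusted p of 0.054, and the exact, 2-sided permutation p was 0.1. DESeq2 gave an adjusted p of 0.0112, and edgeR without preconditioned replicate 1 gave 0.0138 with a log2 fold change of −0.62. In each of these fits the fold change stayed short of the cutoff. In CPM, the preconditioned libraries held 78.1%, 70.1% and 60.9% of the fresh mean of CEBPD, in the same order as for TP63.

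Of the 6 other C/EBP transcription factors listed, 5 were tested and 0 were called, with log2 fold changes from −0.73 to 0.32 and a median of −0.25. CEBPB, which acts in inflammation and differentiation, had a log2 fold change of −0.25 (edgeR adjusted p = 0.467). CEBPG had the lowest adjusted p of the list, at 0.0661, with a log2 fold change of −0.39. DDIT3, a stress-induced member also called CHOP, had an estimate of 0.32 (edgeR adjusted p = 0.309).

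SOX9 was the tested member with a positive log2 fold change. It was expressed at 26.4, 40.8 and 24.1 CPM in the fresh libraries and at 35.7, 47.9 and 35.1 CPM in the preconditioned libraries. Fresh replicate 2 lay above 2 of the preconditioned libraries, so the groups overlapped. The means were 30.4 ± 9.03 and 39.6 ± 7.24 CPM (SD, n = 3), with a log2 fold change of 0.38 (95% interval −0.17 to 0.93) and an edgeR adjusted p of 0.304. The difference did not pass the test, and the interval holds no change as large as the fold change cutoff.

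Of 14 other SOX genes, 7 were tested. SOX13 fell from 8.41, 8.10 and 8.23 CPM in the fresh libraries to 3.89, 2.08 and 2.44 CPM in the preconditioned libraries (log2 fold change −1.55, standard error 0.29, edgeR adjusted p = 0.0389). The other 6 were not called, among them SOX15 (log2 fold change 0.44, adjusted p = 0.215) and SOX7 (0.60, adjusted p = 0.224). SOX2, singled out after its values were seen, had the largest positive value of the list (1.23, edgeR adjusted p = 0.0737, DESeq2 adjusted p = 0.0237). It was higher in every preconditioned library than in any fresh library, as were 17.9% of tested genes, and DESeq2 called it. The median of the list was 0.44, with 5 genes above 0. SOX9 and SOX13 thus stood on opposite sides of 0, of which only the difference of SOX13 passed the test.

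BMI1 was expressed at 11.3, 11.6 and 16.2 CPM in the fresh libraries and at 10.4, 13.0 and 11.3 CPM in the preconditioned libraries. The groups overlapped, and the highest value was that of fresh replicate 3. The means were 13.1 ± 2.74 and 11.6 ± 1.30 CPM (SD, n = 3), with a log2 fold change of −0.18 (95% interval −0.66 to 0.30) and an edgeR adjusted p of 0.588. Without fresh replicate 3 the log2 fold change was 0.0066, so the direction rested on that library. As for SOX9 and CEBPD, the interval of BMI1 holds no change as large as the cutoff.

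Among 21 genes of the Polycomb complexes and the locus they repress, 20 were tested and 0 were called, with 10 on each side of 0 and a median of 0.00. PHC2, PHC3 and RING1, subunits of the complex that holds BMI1, had log2 fold changes of 0.04, 0.10 and 0.03. Other subunits of this complex had negative values, among them CBX2 (−1.88, edgeR adjusted p = 0.0841, DESeq2 adjusted p = 0.0062) and PHC1 (−0.84, edgeR adjusted p = 0.0722). Both were singled out after their values were seen, lay lower in every preconditioned library than in any fresh library, and passed both cutoffs of edgeR without preconditioned replicate 1 (−2.83 and −1.12). CDKN2B, a cell cycle inhibitor at the locus that BMI1 represses, had a log2 fold change of −0.06 (edgeR adjusted p = 0.749). EZH2, the methyltransferase of the other complex, was singled out after its values were seen, since its edgeR adjusted p was the lowest of the list at 0.051. It was expressed at 54.2, 50.7 and 45.9 CPM in the fresh libraries and at 36.5, 23.7 and 26.2 CPM in the preconditioned libraries (log2 fold change −0.80). In all, 3 of the 20 tested genes were separated lower (CBX2, PHC1 and EZH2), against 18.8% of all tested genes. Another 3 were separated higher, against 17.9% of all tested genes. These were CBX7 (0.54), EZH1 (0.24) and PCGF1 (0.19), likewise named after their values were seen. Without preconditioned replicate 1 EZH2 passed both cutoffs (−1.02, edgeR adjusted p = 0.00493). In that fit, in which CBX2 and PHC1 also passed, 9.99% of all tested genes did.

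Among the 5 tested members, NGFR had the widest spread between libraries of the same group. It was expressed at 15.4, 37.6 and 3.01 CPM in the fresh libraries and at 5.39, 1.95 and 2.67 CPM in the preconditioned libraries. Fresh replicate 3 lay among the preconditioned libraries, and the highest fresh value was 12.5 times the lowest. The means were 18.7 ± 17.5 and 3.33 ± 1.81 CPM (SD, n = 3), which is 5.59-fold lower in the preconditioned group. The log2 fold change was −2.48 (standard error 0.87, 95% interval −4.56 to −0.41), with an unadjusted p of 0.0257 and an edgeR adjusted p of 0.116. The exact, 2-sided permutation p was 0.2. Without fresh replicate 2 the log2 fold change was −1.47 (adjusted p = 0.309), and without fresh replicate 3 it was −2.99 (adjusted p = 0.0858).

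NGFR is expressed by Schwann cells and other neural crest derivatives as well as by limbal basal cells. The 4 of 6 Schwann cell markers with a row summed to 26.9 to 34.9 CPM in the fresh libraries and 43.0 to 94.9 CPM in the preconditioned libraries. This sum was higher in the group in which NGFR was lower, but MBP made up 95.2% to 99.2% of it, and 2 of the 4 markers stayed under 1 CPM in every library. Without MBP the sums were 0.232 to 0.731 CPM (fresh) and 0.426 to 2.21 CPM (preconditioned) and overlapped. Of 6 melanocyte markers, 3 had at most 3 counts in every library and 4 stayed under 1 CPM, and their sum was 4.61 to 5.85 CPM in the fresh libraries and 2.71 to 6.39 CPM in the preconditioned libraries. The part of these cell types in the level of NGFR was not tested.

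Of 11 other neurotrophins and neurotrophin receptors, 5 were tested and 0 were called, with a median log2 fold change of 0.25. SORT1, a co-receptor of NGFR for the precursors of neurotrophins, had a log2 fold change of −0.01. BDNF, a neurotrophin, had one of 0.25.

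GPHA2 was near the limit of detection. It had 14, 2 and 56 counts in the fresh libraries (0.406, 0.0563 and 1.53 CPM) and 0 counts in each of the 3 preconditioned libraries. The fresh libraries differed widely, and fresh replicate 2 lay under the floor of 3 counts per library, which is what a count of 0 allows. That floor corresponds to 0.0913 to 0.0988 CPM in the preconditioned libraries. The observed mean of the fresh group was 6.97-fold the mean of this floor. Taken alone, fresh replicates 1 and 3 were at 4.26-fold and 16.1-fold of it. Of the 72 fresh counts, 56 came from fresh replicate 3. These ratios allow for counting error in the preconditioned counts of 0 only. They do not cover that of the fresh counts or the spread between libraries. GPHA2 did not pass the filter of edgeR. DESeq2 gave it an adjusted p of 0.00234 with a lower level in the preconditioned group, but the gene entered that test through the fresh libraries alone, so this value is given as a description. Of 8 other glycoprotein hormone subunits and their receptors, 6 had a row and 1 was tested. This was LHCGR, the luteinizing hormone receptor, with a log2 fold change of −2.27 (edgeR adjusted p = 0.0586). LHCGR had 31, 31 and 20 counts in the fresh libraries and 8, 5 and 2 in the preconditioned libraries. It passed the filter through the fresh libraries alone, so these values and its DESeq2 adjusted p of 0.0164 are given as a description.

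FRZB was barely detected. It had 1, 5 and 7 counts in the fresh libraries and 2, 3 and 3 counts in the preconditioned libraries, so the groups overlapped. The 13 counts of the fresh group and the 8 of the preconditioned group gave a ratio of 1.44 (95% counting interval 0.553 to 4.01). A difference in FRZB was not detectable at this depth.

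Among 9 other secreted Wnt antagonists, 6 were tested and 1 was called. DKK1, which blocks the Wnt co-receptors of the LRP family, rose from 1.51, 1.24 and 1.97 CPM in the fresh libraries to 6.51, 25.2 and 15.7 CPM in the preconditioned libraries (log2 fold change 3.33, standard error 0.51, edgeR adjusted p = 0.0312). The groups did not overlap, although the preconditioned libraries differed among themselves. SFRP1, a relative of FRZB, differed by −0.74 on the log2 scale (edgeR adjusted p = 0.224). DKK3 and SFRP2 had log2 fold changes of 0.35 (adjusted p = 0.646) and −1.30 (adjusted p = 0.398).

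For ABCG2, a row without a gene symbol, LOC100008640, was described in the deposited table as an ATP-binding cassette transporter of sub-family G, member 2. It was found by its description after the rows had been seen and was not counted as a member. It had 11, 9 and 28 counts in the fresh libraries and 12, 8 and 5 counts in the preconditioned libraries, so the groups overlapped at low counts. No row was found for ABCB5. Of 12 other transporters of the ABCB and ABCG families, 7 had a row, 6 were tested and 0 were called. ABCB1, the multidrug transporter P-glycoprotein, had a log2 fold change of 0.25 (edgeR adjusted p = 0.525). ABCB6, a transporter with a role in heme handling, had a value of 0.35 (edgeR adjusted p = 0.186).

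**Figure D3:**
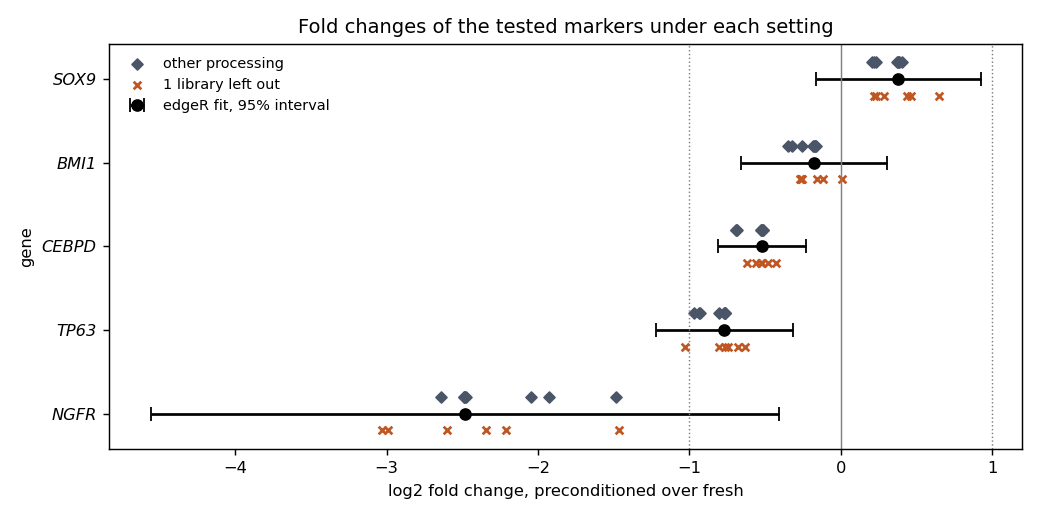
Log2 fold change of each tested marker (preconditioned over fresh), with the edgeR estimate and its 95% interval in black, other processing settings as diamonds above it and fits with 1 library left out as crosses below it. The dotted lines mark the fold change cutoff. The intervals of TP63, CEBPD and NGFR lie below 0, and those of SOX9 and BMI1 hold 0.

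Per gene length, in FPKM, the order of the members differed between the groups. In the fresh group CEBPD came first at 160 ± 9.70 FPKM (SD, n = 3), followed by TP63 at 37.5 ± 1.53 FPKM, SOX9 at 17.6 ± 5.21 FPKM, NGFR at 6.03 ± 5.66 FPKM and BMI1 at 3.81 ± 0.819 FPKM. NGFR and BMI1 overlapped between libraries, whereas each of the 3 more abundant genes was apart from the next. In the preconditioned group CEBPD came first at 99.4 ± 13.3 FPKM, and SOX9 at 20.3 ± 3.12 FPKM and TP63 at 19.6 ± 5.91 FPKM overlapped. BMI1 followed at 2.99 ± 0.251 FPKM and NGFR at 0.966 ± 0.546 FPKM. GPHA2 and FRZB were last in both groups, at means of 0.258 FPKM or less. TP63 thus stood apart from SOX9 in the fresh group only, and a difference in this order between groups was not tested.

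The members also differed in how tightly their libraries agreed. In the fresh group, the SD of log2 CPM was 0.06 for TP63 and 0.08 for CEBPD, above those of 10.2% and 15.9% of tested genes. BMI1 and SOX9 had SDs of 0.29 and 0.40, above 65.5% and 76.9% of genes. NGFR had an SD of 1.82, above 99.7% of genes. In the preconditioned group the SDs of TP63, CEBPD, BMI1, SOX9 and NGFR were 0.38, 0.18, 0.16, 0.25 and 0.73, above those of 64.0%, 30.1%, 25.8%, 44.6% and 86.2% of tested genes. The median SD over all tested genes was 0.19 (fresh) and 0.28 (preconditioned). These differences in spread were not tested.

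The genes whose log2 CPM followed each member most closely over the 6 libraries were found by Pearson's r among 11865 genes with a symbol. The 6 libraries include both groups, so r follows the group difference where there is one, and it is given as a description. The genes named are the highest of 11865 over only 6 libraries. How high r would be for any gene picked in this way was not tested. For TP63 these were MCMBP (r = 0.9999) and TRIP13 (r = 0.998), with log2 fold changes of −0.68 and −1.33. For CEBPD they were SYMPK (r = 0.9995) and GBA2 (r = 0.999), with log2 fold changes of −0.47 and −1.01. NGFR was followed by IL17D (r = 0.993) and WNT10A (r = 0.992), SOX9 by GPR85 (r = 0.996) and XKR9 (r = 0.978), and BMI1 by ITPR3 (r = 0.990) and DRG1 (r = 0.986). None of these 10 genes had an edgeR adjusted p under 0.05 with all libraries. Without preconditioned replicate 1, TRIP13 (−1.88, adjusted p = 0.00359) and GBA2 (−1.21, adjusted p = 0.0156) passed both cutoffs, as did 9.99% of all genes tested in that fit.

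Other genes that have been used to mark limbal progenitors were examined beside the members. Of 20 such genes, 15 were tested and 0 passed both cutoffs, with 9 above 0, 6 below and a median log2 fold change of 0.15. ITGB1, the integrin β1 chain of basal cells, passed the adjusted p alone, from 2145, 1532 and 1933 CPM in the fresh libraries to 2719, 3875 and 3936 CPM in the preconditioned libraries (log2 fold change 0.91, edgeR adjusted p = 0.0479). Without preconditioned replicate 1 it passed both cutoffs (1.05, adjusted p = 0.0081), as did 9.99% of all genes tested in that fit. Over all alternatives the adjusted p of ITGB1 reached 0.163. ENO1, ITGA6 and VIM had log2 fold changes of 0.29 (adjusted p = 0.17), −0.12 (adjusted p = 0.616) and 0.43 (adjusted p = 0.5). CXCR4, a chemokine receptor singled out after its values were seen, had the largest positive value of the list (1.93, edgeR adjusted p = 0.0689), and passed both cutoffs with DESeq2 (adjusted p = 0.00409) and without preconditioned replicate 1 (2.11, edgeR adjusted p = 0.0382). Also named after their values were seen were CDH3 and CDH2 (N-cadherin). CDH3 was lower in every preconditioned library than in any fresh library (−0.65). CDH2 had the largest negative value (−2.15, edgeR adjusted p = 0.157). It had 12, 17 and 90 counts in the fresh libraries and 9, 3 and 11 in the preconditioned libraries, so the groups overlapped. CDH2 passed the filter through the fresh libraries, so its values are given as a description.

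Of 15 markers of corneal differentiation, 10 were tested. TKT, a transketolase that is abundant in the corneal epithelium, fell from 1472, 1474 and 1045 CPM in the fresh libraries to 657, 468 and 792 CPM in the preconditioned libraries (log2 fold change −1.06, edgeR adjusted p = 0.0476). The other 9 were not called, among them MUC4 (log2 fold change −1.96, adjusted p = 0.151), CLU (0.09, adjusted p = 0.781) and GJA1 (0.33, adjusted p = 0.428). TGM1, a transglutaminase of the cornified envelope singled out after its values were seen, was higher in every preconditioned library than in any fresh library (1.05, edgeR adjusted p = 0.0593, DESeq2 adjusted p = 0.00456). The median log2 fold change was 0.07. When counts were scaled by library size alone, the medians of the progenitor and differentiation lists were −0.03 and −0.09, so the sign of either median depended on the scaling.

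The 8 proliferation markers all had negative log2 fold changes, with a median of −1.25. In edgeR 0 of them were called, against 2.29% of all tested genes. In DESeq2 5 were called lower, where 7.78% of all its tested genes were called in either direction. Their summed CPM was 518 to 721 in the fresh libraries and 461, 166 and 184 in preconditioned replicates 1 to 3. TOP2A, CCNB1, PCNA and MCM2 had adjusted p values of 0.109, 0.0879, 0.222 and 0.0856 in edgeR, with log2 fold changes of −1.15, −1.54, −0.72 and −1.35. Without preconditioned replicate 1, all 8 markers passed both cutoffs, as did TP63 and 9.99% of all genes tested in that fit. Over all the lists of related genes, 5 of 98 tested genes passed both cutoffs (CDKN1A and DKK1 higher, FGFR2, SOX13 and TKT lower), against the 2.29% of all tested genes. Each of the 5 kept its sign in 14 of 14 alternatives and was called in 5 to 8 of them. All 5 calls held without preconditioned replicate 1, and 0 of the 5 held when any other library was left out. DESeq2 called 17 of the 101 genes of these lists that it tested, of which 6 were higher, against 7.78% of all its tested genes. The 17 include LHCGR, whose values are given as a description only.

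**Figure D4:**
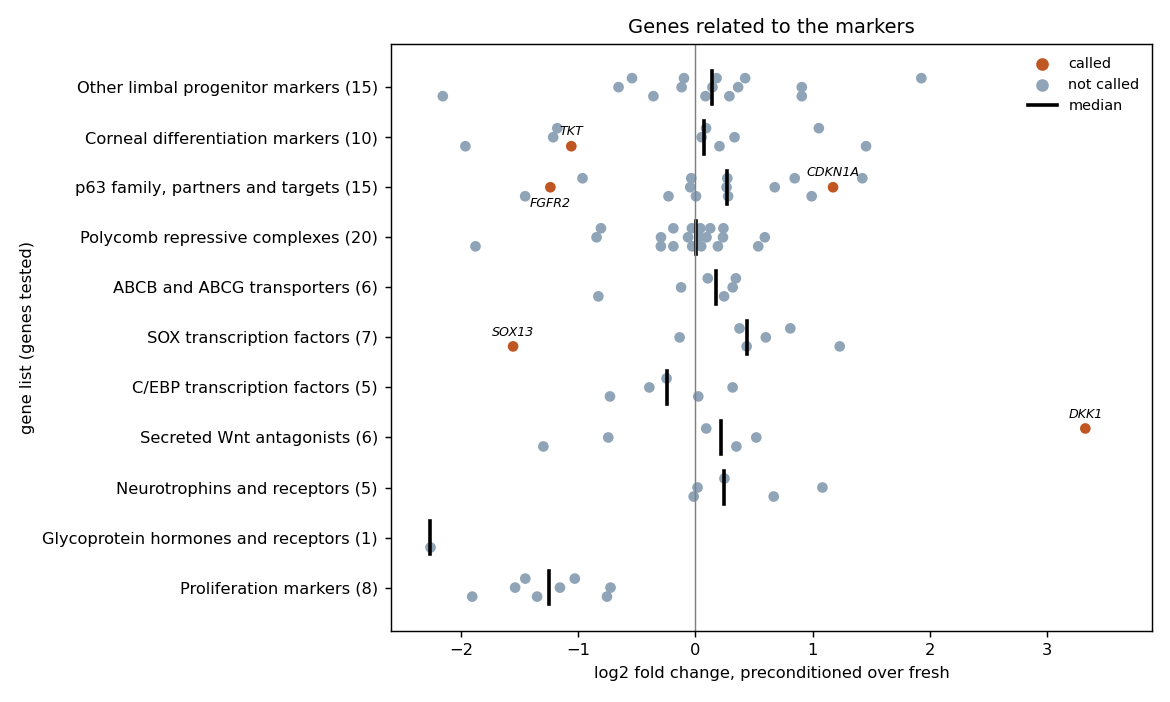
Log2 fold change (preconditioned over fresh) of each tested gene in 11 lists of genes related to the markers, with 1 point per gene, the number of genes tested in parentheses and a bar at the median of each list. The 5 called genes are named and coloured, and all 8 proliferation markers lie below 0.

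Markers of other cells were present beside the members. The summed CPM of 10 stromal fibroblast markers was 291 to 723 in the fresh libraries and 853 to 1593 in the preconditioned libraries, and COL1A1 rose (log2 fold change 2.66, edgeR adjusted p = 0.0153). Without COL1A1 the sums were 234 to 614 and 348 to 900 CPM and overlapped, and 4 of the 10 markers (DCN, KERA, PDGFRB and THY1) had negative log2 fold changes. FAP, singled out after its values were seen, was higher in every preconditioned library than in any fresh library (1.81, edgeR adjusted p = 0.0756, DESeq2 adjusted p = 0.00429). This separation was seen for 2 of the 10 markers (COL1A1 and FAP), against 17.9% of all tested genes. Leukocyte markers summed to 96.1 to 132 CPM in the fresh libraries and 123 to 311 CPM in the preconditioned libraries, and 1 of the 6 had at most 3 counts in every library. CD68 alone made up 96.3% to 99.0% of this sum, and the others together had 2.67 to 2.71 CPM (fresh) and 2.25 to 11.4 CPM (preconditioned). Vascular endothelial markers summed to 2.67 to 3.13 CPM and 1.07 to 13.0 CPM, with 4 of 5 under 1 CPM throughout. Conjunctival markers (2878 to 5135 and 2589 to 5069 CPM) and corneal epithelial markers (9516 to 13255 and 9055 to 13309 CPM) overlapped between the groups. The part of these cells in the differences of TP63, CEBPD and NGFR was not tested.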

How the data were processed

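RNA was sequenced from 3 fresh and 3 preconditioned libraries of rabbit LSCs, grouped by their sample titles. Reads were aligned with hisat2 and counted with htseq-count by the authors, and the deposited counts are raw. In the deposited FPKM values each count is divided by its library total and by 1 length per gene. Genome build, annotation and strand setting are not given in the sources used here. For RNA extraction, an Omega kit is given in the methods and TRIzol in the sample records. Gene symbols were taken from the deposited table, and the identifiers of the 7 members with a row matched the same symbols in a RefSeq table (mOryCun1.1), of which no coordinates were used.

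The test was that of edgeR 4.0.16 in R 4.3.3 (filterByExpr, TMM, robust quasi-likelihood test of condition, Benjamini-Hochberg adjustment over 15029 genes), in place of the DESeq2 of the study, which is an alternative here (1.42.0). Standard errors were derived from the F statistic. Totals of 31952352 to 34327534 counts limit precision only for genes with few counts. A count of at most 3 per library was taken as the floor, and log2 ratios used CPM + 0.1. Libraries of a group differed by more than sampling noise (chi-square per degree of freedom 48.1 to 147). Deviations from the group means were not shared by libraries with the same number (r = −0.07, −0.08 and −0.12 across genes), so they were not treated as pairs. The fits were tested on simulated counts.

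Genes named were the members, the called genes of each list or otherwise up to 4 tested genes of it with the highest mean CPM, and the 2 genes most like each tested member. Some genes under this rule are not reported here. Genes outside this rule are said to be so, besides the lowest adjusted p values of the C/EBP list, genes that passed the adjusted p alone and markers of other cell types named for their share of a sum or their sign. Members and lists were chosen with earlier results of these data known. Alternatives were DESeq2, its size factors, library size alone, other filters, limma-trend (limma 3.58.1) on log2(FPKM + 1) and log2(FPKM + 0.1), a replicate block, each library left out, no fold change cutoff and, chosen after seeing the data, KRT5 in place of KRT3 and marker sums without COL1A1, CD68 or MBP.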

Additional observations from a re-analysis of the deposited data

How the results depend on the processing

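GPHA2 and FRZB had few counts at this depth and were not tested by edgeR. The adjusted p of TP63 and of CEBPD passed in 6 of 14 alternatives each, and both cutoffs were passed in 1 (TP63) and 0 (CEBPD). Of 70 recomputed log2 fold changes of the 5 tested members, 69 kept their direction, and 1 passed both cutoffs. The exception in direction was BMI1, at 0.0066 without fresh replicate 3, with a range of −0.27 to 0.0066 when single libraries were left out. TP63 ranged from −1.03 to −0.63 over 14 alternatives (adjusted p 0.00398 to 0.194), CEBPD from −0.70 to −0.43 (0.0112 to 0.178) and NGFR from −3.03 to −1.47 (0.0564 to 0.309). The number of members called, 0, became 1 with DESeq2 (GPHA2, not tested by edgeR) and 0 to 1 when each library was left out, with TP63 called without preconditioned replicate 1. The number of genes called in the related lists, 5, was 17 with DESeq2, 3 with limma on log2(FPKM + 1), 8 with no cutoff on the fold change, and 0 to 22 when each library was left out, with 22 without preconditioned replicate 1, 1 (LAMB3) without preconditioned replicate 3 and 0 otherwise. With the replicate number as a block, 0 members and 0 genes of the lists were called, with adjusted p values of 0.101 for TP63 and 0.135 for CEBPD and of 0.0762 to 0.111 for the 5 genes otherwise called, while the block left the difference of the ratio of TP63 to KRT3 at 0.19. That difference became −0.74 with KRT5 in place of KRT3 and lay between −0.54 and 0.85 when single libraries were left out, with −0.28 without preconditioned replicate 2. KRT12 in place of KRT3 could not be run, since KRT12 had no row. Over all genes, the 344 calls (47.4% higher) became 1190 with DESeq2, 565 with library size alone (25.1% higher), 763 with no fold change cutoff, 30 with the block and 14 to 1546 with a library left out. Library size alone moved the median over all tested genes from 0.01 to −0.16 (log2). The causes of these differences were not tested.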
